A study of Mus musculus with 16 samples.

Results

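Linker histone H1 genes were followed across 8 RNA-seq libraries of mouse embryonic stem (ES) cells. The members were taken by name, under the symbols of the count tables: Hist1h1a, Hist1h1b, Hist1h1c, Hist1h1d, Hist1h1e, Hist1h1t, H1f0 and H1fx. All 8 were found among the 23420 genes of the tables. The family was selected on measured values, since it was proposed with the ES cell levels and fold changes of these same libraries in view. Its levels, fold changes and calls in the ES cells are therefore a description, with no p given for a member, and nothing is read from how many members were called.

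The ES cells were of the J1 line, 129S4/SvJae background, passage 36, grown without feeder cells in serum medium with LIF and the 2 inhibitors of the 2i medium, and were labelled day 3. All of them, controls included, carried a transgene with dCas9-VPR, a Cas9 without nuclease activity fused to activation domains, a guide RNA for RLTR10B2 (long terminal repeats of endogenous retroviruses), and DsRed. The 4 groups of 2 libraries were cells without doxycycline (control), cells with doxycycline at 1 µg/ml (Dox), cells without doxycycline but with A-MYB (A-MYB), and cells with both (Dox + A-MYB, below the combined cells); the inductions are given as day 1 and day 2. A-MYB, the product of Mybl1, is a DNA-binding activator of meiotic genes in the testis. No group had doxycycline without the activator, the labels do not say how A-MYB expression was switched on, and nothing says that replicates were separate cultures, so the spread between them may be technical. For chromatin, meiotic cells at the pachytene stage came from C57BL/6J males (1 male per sample, 8 to 12 weeks old), either wild type or homozygous for the repro9 allele of A-myb, and each genotype has 2 lists of peaks of histone H3 acetylated at lysine 27 (H3K27ac).

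H1 proteins bind the DNA that enters and leaves the nucleosome and help chromatin to fold. In mouse, Hist1h1a to Hist1h1e encode the somatic subtypes that are made mainly in S phase, when new chromatin is built. Their mRNAs, like those of the core histones beside them, mostly end in a stem-loop in place of a poly(A) tail. H1f0, a replacement subtype that accumulates in cells that slow their division, and H1fx, a divergent subtype, are expressed outside S phase as well and have polyadenylated mRNAs. Hist1h1t encodes the H1 of pachytene spermatocytes. The library kit named in the labels selects polyadenylated RNA. For the 5 somatic genes of the cluster and the core histone genes, the counts therefore need not follow their stem-loop mRNA, which was not measured.

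Hist1h1a to Hist1h1e and Hist1h1t lie within 1.98 Mb of chromosome 13, in the Hist1 cluster. Hist1h1b (RefSeq symbol H1f5) stands at 21779832 to 21780625, and the other 5 lie between the start of Hist1h1d (H1f3, 23555032 to 23555807) and the end of Hist1h1a (H1f1, 23763668 to 23764412), in the GRCm38.p6 annotation. H1f0 is on chromosome 15 (79028212 to 79030504) and H1fx (H1f10) on chromosome 6 (87980421 to 87981482). None of the 8 overlaps another annotated gene. The closest neighbour of Hist1h1e (H1f4) is Hist1h2be, 653 bases away, and that of H1fx is the noncoding gene Gm5577, 201 bases away. The somatic H1 genes are known to be alike in sequence, and reads that fit more than 1 place were left uncounted (6.62% to 7.25% of reads per library were set aside as not unique), so a level could be understated for a gene that shares long stretches with another.

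The promoters of the 6 cluster genes, chosen after their values were seen, are shown from RefSeq on GRCm38.p6. The part of promoter sequence in the fold changes was not tested. Each line gives the 150 bases before the annotated start, read 5′ to 3′ on the gene's strand, and capitals mark 3 elements known from histone promoters: AAACACA (the H1 box), CCAAT, and TATAAA or TATATA, which can overlap.
Hist1h1b, chr13:21780626-21780775, minus strand: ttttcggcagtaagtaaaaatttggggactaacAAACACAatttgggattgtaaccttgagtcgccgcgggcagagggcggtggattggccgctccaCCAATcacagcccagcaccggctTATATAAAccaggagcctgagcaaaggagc
Hist1h1d, chr13:23554882-23555031, plus strand: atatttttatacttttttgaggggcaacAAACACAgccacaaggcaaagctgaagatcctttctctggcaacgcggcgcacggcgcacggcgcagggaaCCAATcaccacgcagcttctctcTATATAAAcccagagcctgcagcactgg
Hist1h1c, chr13:23738657-23738806, plus strand: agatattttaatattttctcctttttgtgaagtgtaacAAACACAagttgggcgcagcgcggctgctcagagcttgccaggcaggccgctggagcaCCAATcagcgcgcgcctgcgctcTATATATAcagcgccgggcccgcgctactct
Hist1h1e, chr13:23622559-23622708, minus strand: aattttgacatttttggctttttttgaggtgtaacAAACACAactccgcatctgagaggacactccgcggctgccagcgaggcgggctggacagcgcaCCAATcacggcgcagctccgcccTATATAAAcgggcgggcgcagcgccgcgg
Hist1h1t, chr13:23695661-23695810, plus strand: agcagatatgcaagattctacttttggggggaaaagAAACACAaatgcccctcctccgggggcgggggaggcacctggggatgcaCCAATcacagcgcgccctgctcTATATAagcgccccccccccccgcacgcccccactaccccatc
Hist1h1a, chr13:23763518-23763667, plus strand: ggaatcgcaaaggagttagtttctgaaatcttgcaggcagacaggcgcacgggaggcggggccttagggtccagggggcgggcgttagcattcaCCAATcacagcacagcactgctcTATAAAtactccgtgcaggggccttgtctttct

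The order H1 box, CCAAT, TATA on the gene's own strand was found in these 150 bases in 5 of the 8 members and in 10 of 32851 annotated promoters (0.0304%). Hist1h1b, Hist1h1c, Hist1h1d, Hist1h1e and Hist1h1t have it, with the H1 box starting 112 to 122 bases and the CCAAT nearest the start 51 to 65 bases before the start. Hist1h1a has CCAAT at 56 bases and TATAAA at 33 bases and no AAACACA in the window. H1f0 and H1fx have none of the 3 in it. Searched alone on the same strand in the same 150 bases, AAACACA was in 1.8%, CCAAT in 13.3% and TATAAA or TATATA in 7.05% of all promoters. The core of the MYB recognition sequence, AACNG with N any base, was found on either strand of the 300 bases from 250 before to 50 after the start in 7 of 8 members and in 80.3% of all promoters; Hist1h1c was the member without it. A match is a run of letters and not a site known to be bound.

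In the 8 ES libraries gene counts summed to 26995317 to 33771487. Both combined libraries lay far from the rest, with 17554 and 17602 genes detected against 16027 to 16512, and 8.79% and 9.43% of reads assigned to no gene against 7.28% to 8.34%. Mybl1 averaged 7.65 CPM (counts scaled to a common library size with edgeR's TMM factors) in control cells, 10.6 with Dox, 19.9 with A-MYB and 18.3 in the combined cells. The ES markers Pou5f1, Nanog, Sox2, Zfp42 and Esrrb summed to 4790 to 4974 CPM in control and 3363 to 3701 CPM in the combined cells. Markers of meiotic germ cells (Sycp1, Sycp2, Sycp3 and Dmc1, none of them at 0 in any group) summed to 5.09 to 5.68 CPM in control cells, 8.18 to 9.94 with Dox, 9.65 to 12.3 with A-MYB and 18.4 to 21.4 CPM in the combined cells, and all 4 spermatid markers were at 0 counts in all groups. Dmc1 by itself was lower with Dox (2.91 CPM in control, 2.11 with Dox). Changes were not confined to meiotic markers. Primitive endoderm markers (Gata4, Gata6, Sox7, Sox17) summed to 5.26 to 6.1 CPM in control and 8.07 to 8.73 in the combined cells. Trophoblast markers (Cdx2, Elf5, Eomes, Gata3) summed to 27.5 to 27.6 CPM in control and 13.5 to 14.3 in the combined cells. Fewer cells of a type and less RNA per cell cannot be told apart in such bulk libraries, and the part that these differences play in the H1 levels was not tested.

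Per kilobase of annotated gene, 3 genes made up most of the H1 reads in control cells. H1f0 stood at 55.1 ± 1.67 CPM per kilobase (mean ± SD, n = 2, as for all such values), Hist1h1c at 54.8 ± 5.88 and H1fx at 35.8 ± 0.686. The libraries of H1f0 and Hist1h1c overlapped, so their order is not resolved. Far below came Hist1h1d (2.96 ± 0.293), Hist1h1a (2.53 ± 0.0318), Hist1h1b (1.71 ± 0.547), Hist1h1e (1.01 ± 0.381) and Hist1h1t (0.0735 ± 0.0292). In the combined cells the order was Hist1h1c (173 ± 9.76), H1f0 (106 ± 3.96), H1fx (41.9 ± 1.62), Hist1h1d (27.4 ± 0.354), Hist1h1b (19.6 ± 1.54), Hist1h1a (15.6 ± 1.29), Hist1h1e (5.76 ± 0.595) and Hist1h1t (0.28 ± 0.0535), with no overlap between neighbours. Hist1h1c thus stood above H1f0 there, and it did so in A-MYB cells too (95.1 ± 7.72 against 69.1 ± 4.14).

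**Figure D1:**
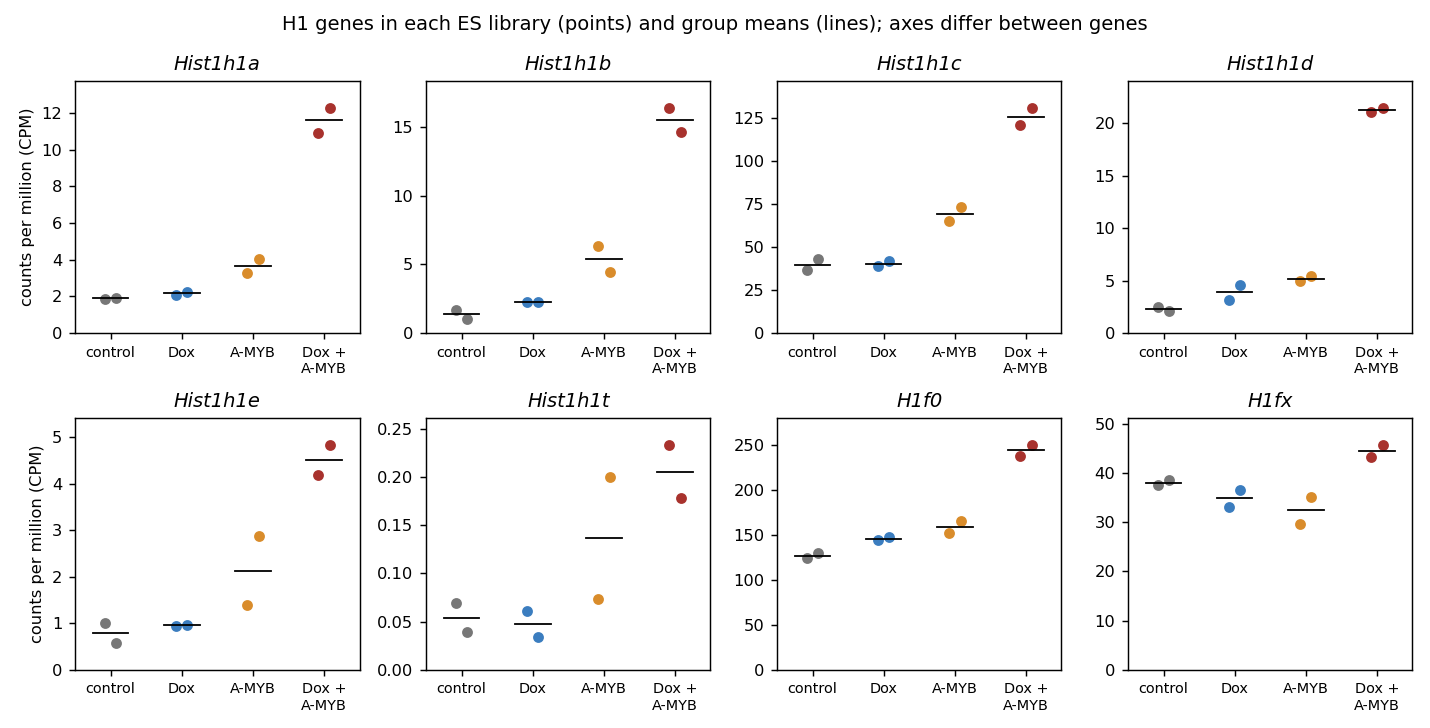
Level of each H1 gene (CPM, vertical axes starting at 0 and differing between genes) in the 2 libraries (points) of each of 4 groups, with the group mean as a line. In all 8 panels the mean of the Dox + A-MYB libraries is the highest; for Hist1h1t their lower library (0.178 CPM) lies under the higher A-MYB library (0.200 CPM).

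Hist1h1b, a somatic subtype of the cluster, had the largest log2 fold change of the 7 tested members for A-MYB and for both treatments against control, and Hist1h1d for Dox alone. It read 1.66 and 1.05 CPM in the control libraries, 2.24 and 2.23 in Dox, 6.32 and 4.47 in A-MYB, and 16.4 and 14.7 CPM in the combined cells. The 4 groups did not overlap, and each treated group lay above the control. Against control the log2 fold change was 0.71 (SE 0.26) for Dox, 1.97 (SE 0.24) for A-MYB and 3.5 (SE 0.22) for both together. Its Dox value was 1.07 without control replicate 1, and the call was lost without control replicate 2 (0.41), Dox replicate 1 (0.71) or Dox replicate 2 (0.69), with DESeq2 size factors, upper-quartile scaling or the DESeq2 Wald test, and with only these 2 groups in the fit (0.68 to 0.69).

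Hist1h1d followed, with 2.46 and 2.14 CPM in control, 3.15 and 4.61 in Dox, 4.93 and 5.41 in A-MYB, and 21.1 and 21.4 CPM in the combined cells. The combined libraries stood several-fold above all others, and the other 3 groups formed a low range without overlap. Its log2 fold changes against control were 0.74 (SE 0.21), 1.17 (SE 0.20) and 3.20 (SE 0.18) in the same order of groups. The Dox call was lost without Dox replicate 2 (0.43) and without control replicate 2 (0.63).

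Hist1h1a read 1.87 and 1.90 CPM in control, 2.09 and 2.23 in Dox, 3.25 and 4.04 in A-MYB, and 10.9 and 12.3 CPM in the combined cells. Control and Dox libraries differed little, and the other 2 groups lay higher. The log2 fold changes were 0.19 (SE 0.24) for Dox, which was not called, 0.95 (SE 0.23) for A-MYB and 2.62 (SE 0.21) for both.

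Hist1h1e had the fewest reads of the 7 genes that entered the fit, 15 to 163 counts per library. It read 1.00 and 0.583 CPM in control, 0.939 and 0.962 in Dox, 1.39 and 2.87 in A-MYB, and 4.18 and 4.83 CPM in the combined cells. Dox lay within the control range, and the 2 A-MYB libraries lay above the control and far from each other. The log2 fold changes were 0.25 (SE 0.41), not called, then 1.41 (SE 0.38) and 2.49 (SE 0.36). The A-MYB value was 0.76 and no longer called without A-MYB replicate 2, and 1.06 and no longer called without control replicate 2.

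Hist1h1c, the somatic cluster gene with the most reads here, read 36.7 and 42.8 CPM in control, 39.0 and 41.7 in Dox, 65.0 and 73.0 in A-MYB, and 120.7 and 130.7 CPM in the combined cells. The Dox libraries lay within the range of the control, at a log2 fold change of 0.02 (SE 0.09), the sign of which depended on the scaling. A-MYB stood at 0.80 (SE 0.09) and the combined treatment at 1.66 (SE 0.08). It had 1061 to 4407 counts per library.

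Among the replication-independent subtypes, H1f0 read 123.7 and 129.1 CPM in control, 143.8 and 147.3 in Dox, 151.7 and 165.1 in A-MYB, and 237.2 and 249.9 CPM in the combined cells. The groups did not overlap, with Dox next above the control, then A-MYB, then the combined cells. Log2 fold changes were 0.20 (SE 0.06), 0.33 (SE 0.06) and 0.95 (SE 0.06). The Dox call was lost when any of control replicate 1, control replicate 2, Dox replicate 1 or Dox replicate 2 was left out, at 0.15, 0.21, 0.22 and 0.16.

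H1fx had the smallest range, with 37.5 and 38.5 CPM in control, 33.0 and 36.6 in Dox, 29.6 and 35.2 in A-MYB, and 43.3 and 45.7 CPM in the combined cells. Both single treatments lay below the control and the double treatment above it. The single treatments were at -0.13 (SE 0.09) and -0.23 (SE 0.09) and were not called, although the A-MYB value was called lower without A-MYB replicate 2 (-0.39), with DESeq2 size factors (-0.25), with upper-quartile scaling (-0.28) and with only these 2 groups in the fit (-0.23). The combined treatment stood at 0.23 (SE 0.09), a call that was lost without control replicate 1 (0.18), control replicate 2 (0.22) or combined replicate 2 (0.15) and with the DESeq2 Wald test (0.21) or only these 2 groups in the fit (0.20); the value was 0.46 with scaling by total counts.

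Hist1h1t, the H1 of pachytene spermatocytes, was near the limit of detection, with 1 to 8 counts per library, and did not pass the filter on low counts. It had 2 and 1 counts in control, 2 and 1 in Dox, 2 and 6 in A-MYB, and 8 and 6 in the combined cells. Against the 3 counts of the control group, the 14 of the combined cells gave a ratio of 3.75 (exact Clopper-Pearson 95% interval 1.05 to 20.4, for counting error only), and the 8 of A-MYB cells a ratio of 2.54 (0.610 to 14.9). The 3 of Dox cells gave 0.879 (0.118 to 6.57). These intervals leave out the spread between replicates, which exceeded sampling noise over all genes, so they are a description and not a test. The 3 other H1 genes of germ cells were rarer still. H1foo of the oocyte had 0 counts in 3 groups and 5 in the combined cells, H1fnt of the spermatid 0 and 2, and Hils1 of the spermatid 0 in control cells, 1 with Dox, 1 with A-MYB and 4 in the combined cells.

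**Figure D2:**
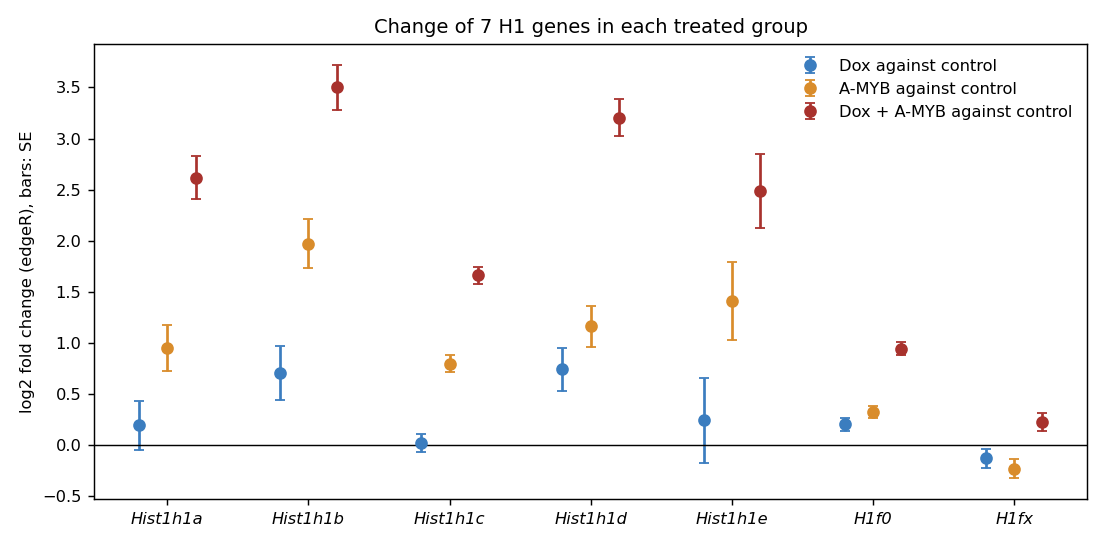
Log2 fold change against control (vertical axis, edgeR; bars are SE) of the 7 H1 genes that entered the fit, for 3 treated groups (Dox, A-MYB, and both together), each with 2 libraries against the same 2 control libraries. For every gene Dox + A-MYB is the highest point, from 0.23 for H1fx to 3.5 for Hist1h1b.

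Of the 8 members, 7 passed the low-count filter, each of them with at least 10 counts in both control libraries. With Dox alone 3 of the 7 were called higher at an edgeR adjusted p under 0.05 over all genes and 0 lower (Hist1h1b, Hist1h1d and H1f0), against 17.9% of the 14664 genes tested called higher, 14.3% lower and 32.2% in either direction. With A-MYB alone 6 were called higher, all except H1fx, against 19.5% higher, 15.2% lower and 34.7% in either direction. With both against control all 7 were called higher, against 33.5% higher, 30.4% lower and 63.9% in either direction. These 3 contrasts share the control libraries. The medians of the 7 log2 fold changes were 0.20, 0.95 and 2.49, beside 0.03, -0.00 and 0.05 over all tested genes. The count for Dox alone was 0 without control replicate 2 or without Dox replicate 2, and 1 without Dox replicate 1. Over all genes, 4906 were called higher and 4462 lower with both against control, and 6946 and 2796 with scaling by total counts, which moves every log2 fold change of that contrast up by 0.235.

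Within A-MYB cells, all 7 members were called higher with Dox (28.5% of tested genes were called higher there, 30.4% lower and 58.9% in either direction), by 2.04 for Hist1h1d (SE 0.16), 1.67 for Hist1h1a (SE 0.19), 1.53 for Hist1h1b (SE 0.18), 1.07 for Hist1h1e (SE 0.32), 0.86 for Hist1h1c (SE 0.08), 0.62 for H1f0 (SE 0.06) and 0.46 for H1fx (SE 0.09), on the log2 scale. Without A-MYB replicate 1, Hist1h1e stood at 0.65 and was not called, and without A-MYB replicate 2 it stood at 1.69. Within Dox cells, all 7 were called higher with A-MYB (26.8% of tested genes were called higher, 28.4% lower and 55.2% in either direction), from 0.36 for H1fx (SE 0.09; 0.27 and not called without Dox replicate 1) and 0.74 for H1f0 (SE 0.06) through 1.64 for Hist1h1c (SE 0.08), 2.24 for Hist1h1e (SE 0.35), 2.42 for Hist1h1a (SE 0.20) and 2.46 for Hist1h1d (SE 0.17) to 2.79 for Hist1h1b (SE 0.20). With total counts the calls over all genes were 6204 higher and 2606 lower in place of 4174 and 4463 for Dox within A-MYB cells, and 5804 and 2367 in place of 3935 and 4161 for A-MYB within Dox cells. With upper-quartile scaling, added after seeing the data, they were 5063 and 3533, and 4690 and 3341.

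The Dox effect was larger in cells with A-MYB than in cells without it for 6 of the 7 members by the interaction term of the fit (16.4% of tested genes were called in that direction, 24.5% in the other and 40.9% in either). The difference between both Dox effects was 1.47 for Hist1h1a (SE 0.31), 1.30 for Hist1h1d (SE 0.27), 0.84 for Hist1h1c (SE 0.12), 0.82 for Hist1h1b (SE 0.33), 0.59 for H1fx (SE 0.13) and 0.42 for H1f0 (SE 0.09) on the log2 scale. Hist1h1e had a similar estimate, 0.83, with an SE of 0.53 and no call. Hist1h1b was not called without control replicate 1 (0.46), Dox replicate 1 (0.81), Dox replicate 2 (0.84), A-MYB replicate 2 (0.61) or combined replicate 1 (0.75), nor with the DESeq2 Wald test (0.85). Hist1h1e moved between 0.39 without control replicate 1 and 1.47, then called, without A-MYB replicate 2. Over all genes 2410 were called higher and 3586 lower for the interaction, 3746 and 2291 with total counts, and 3398 and 2588 with upper-quartile scaling.

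The members differ in level, and so did fold changes over all genes. With the tested genes split into 5 equal groups by control level, a division made with earlier results known, the median log2 fold change for both treatments against control was 1.21 in the lowest group (Hist1h1b and Hist1h1e), 0.20 in the second (Hist1h1a and Hist1h1d), -0.05 in the fourth (Hist1h1c and H1fx) and -0.25 in the highest (H1f0). The lowest group reaches down to 0 CPM in control cells, so some of its genes could pass the low-count filter only through a group where they are high, and its median is in part fixed by the filter. The part of level in the H1 values was not tested.

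The H1 reads of these libraries of polyadenylated RNA grew in number and changed in make-up. The stem-loop mRNA of the cluster genes was not measured, so these sums and shares need not follow all H1 mRNA. Summed over the 8 genes, they came to 154 ± 7.0 CPM per kilobase in control cells, 164 ± 7.64 with Dox, 216 ± 16.6 with A-MYB and 390 ± 16.0 in the combined cells. The 5 somatic cluster genes took 40.9 ± 1.19% of this sum in control cells, 41.2 ± 0.615% with Dox, 53.8 ± 0.134% with A-MYB and 62.0 ± 0.156% in the combined cells. Control and Dox overlapped in this share, and the other 2 groups each stood apart. Hist1h1c went from 35.5 ± 2.2% in control to 44.1 ± 0.207% in A-MYB and 44.4 ± 0.692% in the combined cells. Hist1h1d went from 1.93 ± 0.278% to 3.09 ± 0.0350% and 7.03 ± 0.197% in the same groups. In the other direction, H1fx went from 23.2 ± 0.612% to 14.1 ± 0.626% and 10.7 ± 0.0256%, and H1f0 from 35.8 ± 0.550% to 32.0 ± 0.542% and 27.2 ± 0.111%. A share that falls here need not mean fewer reads, since the H1f0 level rose in both groups. The H1fx level was 35.8 CPM per kilobase in control, lower with A-MYB (30.5) and higher in the combined cells (41.9).

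**Figure D3:**
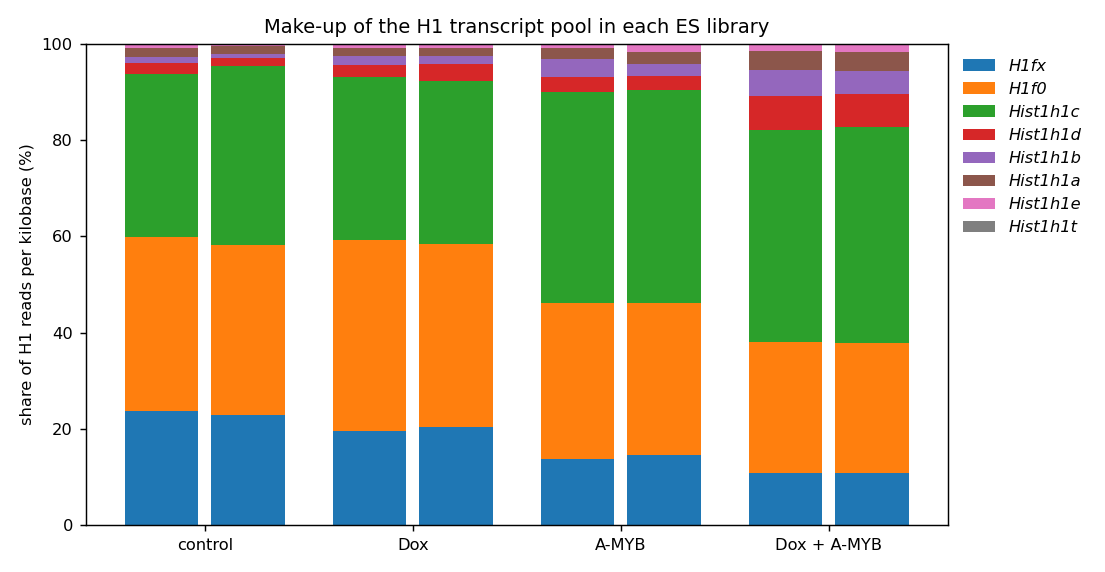
Share of each H1 gene in the sum of H1 reads per kilobase (vertical axis, percent) in each of the 8 ES libraries, 2 bars per group. The reads come from polyadenylated RNA. The part of H1f0 and H1fx is smallest in the Dox + A-MYB libraries, and that of Hist1h1d, Hist1h1b and Hist1h1a is largest there.

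Other genes of the histone supply were followed in 5 lists, chosen with earlier results of these data known. The genes named with a p are among those with the smallest p of their list, so these p values are a description. Of 62 core histone genes of the Hist clusters, which share the stem-loop type of mRNA, 46 were tested. With both treatments against control 29 rose and 0 fell, where 33.5% of all tested genes were called higher and 30.4% lower. The median log2 fold change of the 46 was 1.62, beside 0.05 over all tested genes. Some of the 46 could pass the low-count filter only through the combined cells. Hist1h2aa, for example, had 9 and 1 counts in control and 97 and 109 there. The count of risers and the median may therefore be in part fixed by the filter. Polyadenylated RNA was selected, so these counts need not follow the stem-loop mRNA, which was not measured. Hist1h4i, an H4 gene, rose from 11.1 ± 1.53 to 53.8 ± 0.569 CPM (edgeR adjusted p = 1.51e-15; a difference of 2.28 on the log2 scale, SE 0.11), and Hist1h2bc, an H2B gene, from 18.4 ± 0.976 to 71.9 ± 2.22 CPM (1.97, SE 0.09, adjusted p = 4.06e-16). Without control replicate 2, 19 of the core genes were called. With A-MYB alone 8 of the 46 rose, Hist1h2bc by 1.00 among them, and 0 fell, a count of risers near the 19.5% of all tested genes called higher (15.2% lower). With Dox alone 2 rose and 2 fell, against 17.9% and 14.3% of all tested genes. Counted in both directions together, fewer core genes were called with any single library of that contrast left out.

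Of 9 core histone variants outside the main replication-dependent sets, most of which have polyadenylated mRNAs (H2afx is known to give a stem-loop form too), 1 rose, 7 fell and 1 was not called with both treatments, against 33.5% of all tested genes called higher and 30.4% lower (median -0.29). H2afx, the H2A variant phosphorylated at DNA breaks, fell from 523 ± 19.4 to 190 ± 0.606 CPM (edgeR adjusted p = 4.23e-17), while H3f3b, which encodes a replacement H3, rose from 638 ± 1.67 to 984 ± 19.7 CPM (adjusted p = 4.34e-10). With total counts 5 of the 9 were called.

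Histone mRNA processing and the histone locus body, where the clusters are transcribed, were represented by 20 genes, of which 3 rose, 12 fell and 5 were not called with both treatments, against 33.5% of all tested genes called higher and 30.4% lower (median -0.27). Sympk, a scaffold of the 3′ cleavage complex, stood at -0.67 (edgeR adjusted p = 2.35e-10), and Ccne1, the cyclin whose kinase switches on histone transcription at S phase entry, at -1.20 (adjusted p = 3.76e-15). With A-MYB alone 5 rose and 3 fell, near the 19.5% and 15.2% of all tested genes, with Casp8ap2, a component of the locus body, at 0.63 (adjusted p = 1.01e-06) and Eri1, a nuclease that trims histone mRNA, at 0.52 (adjusted p = 1.87e-06). With Dox alone 3 rose and 3 fell, near the 17.9% and 14.3% of all tested genes. Npat, the coactivator of histone genes, was called higher with Dox (0.28, edgeR adjusted p = 0.0078) and with A-MYB (0.41) and lower with both (-0.34).

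Of 18 genes for proteins that carry H1 or compete with it on chromatin, 2 rose, 13 fell and 3 were not called with both treatments, against 33.5% of all tested genes called higher and 30.4% lower (median -0.62). The acidic protein gene Ptma fell from 1899 ± 111 to 856 ± 99.2 CPM (edgeR adjusted p = 3.81e-13), and the histone chaperone gene Set from 1549 ± 84.8 to 913 ± 21.7 CPM (adjusted p = 1.75e-11). Of 22 S-phase genes, 3 of which (Slbp, Ccne1 and Ccne2) also stand in the processing list, 1 rose, 17 fell and 4 were not called with both treatments, against the same shares of all genes (median -0.21). Those that fell included Rrm2, a subunit of ribonucleotide reductase, at -0.72 (adjusted p = 3.97e-11) and the sliding clamp gene Pcna at -0.68 (adjusted p = 4.61e-11). The S-phase count was 10 of 22 with total counts in place of 18. With each single treatment 6 S-phase genes fell (14.3% of all tested genes were called lower with Dox and 15.2% with A-MYB), and 0 rose with Dox and 1 with A-MYB, Ccne2 at 0.67 (edgeR adjusted p = 7.81e-05). Without 1 library the S-phase count was 3 to 6 with Dox (3 without control replicate 1) and 2 to 6 with A-MYB (2 without A-MYB replicate 1), and it was 10 with Dox and 12 with A-MYB under upper-quartile scaling.

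**Figure D4:**
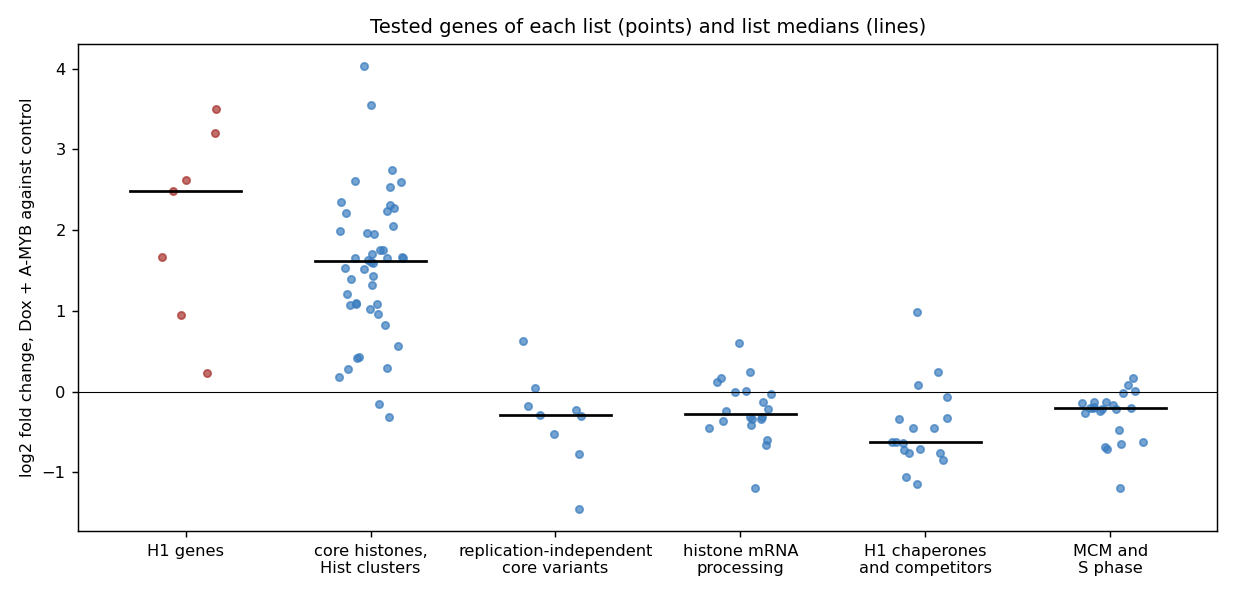
Log2 fold change of Dox + A-MYB cells against control (vertical axis) for the tested genes (points) of the H1 family and of 5 lists, with each list's median as a line. The medians of the H1 family (2.49) and the core histones (1.62) lie above 0 and those of the other 4 lists between -0.62 and -0.21.

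The genes whose levels followed a member most closely over the 8 libraries, by the Euclidean distance between centred log2 CPM profiles, were mostly outside the histone families. For Hist1h1a the nearest was the H4 gene Hist1h4i (distance 0.45, beside a range of 2.67 of Hist1h1a itself), and for Hist1h1b it was the mineralocorticoid receptor gene Nr3c2 (0.48; range 3.88). Hist1h1c was followed most closely by Ctgf, which encodes a matrix protein (0.25; range 1.83), Hist1h1d by Tchh (0.53; range 3.29) and Hist1h1e by Akr1cl (0.51; range 2.92). For H1f0 it was Atf6, a sensor of protein folding stress (0.12; range 1.01), and for H1fx Tango2 (0.12; range 0.62). Among the members, Hist1h1a and Hist1h1d were closest to each other (0.78), and H1f0 and H1fx were each other's nearest member (0.77). In each case the gene named above as nearest lay closer, and 0.77 exceeds the whole range of H1fx (0.62). The profiles share libraries and depth, and many genes have a peak in the same 2 libraries, so the distances are a description.

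In spermatocytes, the peak lists gave no H3K27ac peak within 1000 bases of the start of any of the 8 members, in either library of wild-type or mutant cells. The lists hold few peaks at any gene start: 1.0% to 2.7% of 27025 annotated genes had a peak within 1000 bases of a start, and 1.1% to 2.4% of the peaks lay that close to one. H3K27ac is known from active promoters, so such low shares are unusual for this mark, and the settings and control of the peak calls are not stated. The lists may not show the mark at gene starts, and neither a missing peak nor an enrichment below is read as the presence or absence of the mark at a member. For Hist1h1t the nearest peak was 10.9 to 11.1 kb upstream in all 4 libraries, with an enrichment of 5.64- to 6.49-fold, as the authors' peak lists give it. The nearest to Hist1h1b was 2.1 to 2.3 kb upstream in both wild-type libraries and in mutant replicate 1, and 6.8 kb upstream in mutant replicate 2. Hist1h1a had one 1.2 kb upstream in mutant replicate 2 and 10.7 to 10.8 kb upstream in the other 3. H1fx had one 3.7 to 3.9 kb downstream in all 4, and H1f0 none within 281 kb. The Hist1 cluster around the H1 genes was not bare. In the 1.98 Mb from Hist1h1b to Hist1h1a lay 34 and 35 peaks in wild type and 27 and 30 in the mutant. Of 55 core histone genes matched to a start, 24 and 27 in wild type and 17 and 21 in the mutant had a peak within 1000 bases. These 55 came from all the Hist clusters, and those of Hist1 were not counted apart. With 2 lists against 2, an exact two-sided permutation test can go no lower than p = 0.333, so none was made, and total peak numbers were also higher in wild type (29042 and 24130) than in the mutant (22397 and 21269).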

How the data were processed

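The authors deposited counts per gene symbol, not normalized, for the ES cells; per the submitters' processing notes the tools were bcl2fastq 2.20.0, HISAT2 2.1.0, HTSeq, Bowtie2 2.3.3.1 and MACS 1.4.2 with the build mm10, and their settings are not given in the sources used here. The 5 special lines of each file were kept out. The deposited peak lists, called per library, give tags as counts, a score (used nowhere here) and a ratio, the fold enrichment of each peak. The 4 input libraries were not analysed here.

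Of 23420 genes, 14664 passed filterByExpr and were fitted with edgeR 4.0.16 (TMM, glmQLFit, robust, 1 coefficient per group, 4 residual degrees of freedom; R 4.3.3, limma 3.58.1); glmQLFTest was two-sided with Benjamini-Hochberg adjustment, and an adjusted p under 0.05 was a call. SE is the absolute log2 fold change over the square root of F. The fit was tested on simulated data. DESeq2 1.42.0, other scalings, no filter, a replicate block and leaving out libraries were alternatives. Replicates differed by more than sampling noise (chi-square per degree of freedom 5.59 to 14.4). Members and lists were chosen with earlier results of these data known. Named genes are all members, the called genes of each list with the smallest p (up to 4, or 2 for core histones), and the genes nearest to a member in profile. Promoters are from RefSeq, GRCm38.p6. All 8 members were matched, H1f0 by its symbol and the others through synonyms.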

Additional observations from a re-analysis of the deposited data

Results flagged for a closer look

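The effect of Dox differed between cells with and without A-MYB, by the interaction term of the edgeR fit, for 6 H1 genes. The difference on the log2 scale was 1.47 for Hist1h1a, 1.3 for Hist1h1d, 0.84 for Hist1h1c, 0.82 for Hist1h1b, 0.59 for H1fx and 0.42 for H1f0. All 6 are positive, as were 2410 of the 5996 genes called for the interaction, and the family was proposed with these contrasts in view. Groups of 2 libraries are too small for a search for single outlying libraries.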

How the results depend on the processing

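Of the 77 values of the 7 tested H1 genes recomputed per contrast (98 for the interaction), the direction and the side of the threshold were kept in 72 for the combined treatment against control, 76 for Dox with A-MYB, 76 for A-MYB with Dox, 70 for A-MYB without Dox, 91 for the interaction and 57 for Dox without A-MYB; the cause of the others was not tested. For Dox without A-MYB, Hist1h1c changed sign, to -0.0065 with DESeq2 size factors, -0.0096 with upper-quartile scaling (added after seeing the data), -0.0067 with the DESeq2 Wald test and -0.0031 with only these groups in the fit. Without 1 library it ran from -0.108 to 0.112, and Hist1h1e from -0.102 to 0.678.

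The number of H1 genes called for Dox without A-MYB was 0 to 2 without 1 library, against 3. For the other contrasts it was 5 to 7 without 1 library and under the other settings. S-phase genes called with Dox were 10 with DESeq2 size factors, upper-quartile scaling or only these groups, against 6, and 3 to 6 without 1 library. With A-MYB they were 4 with total counts and 12 with upper-quartile scaling, against 7, and 2 to 6 without 1 library. With the combined treatment they were 10 with total counts, against 18, and replacement core variants were 5, against 8. Chaperone genes called without 1 library were 3 to 9 with Dox and 1 to 6 with A-MYB, against 7 each. Core histones were 0 to 1 with Dox, against 4, and 19 to 28 with the combined treatment, against 29. Within 2500 bases, 1 H1 gene (Hist1h1b) had a peak in both wild-type libraries, against 0. In the mutant none had one in both, although Hist1h1b had one in replicate 1 and Hist1h1a in replicate 2.

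Replicate numbers did not pair the libraries (correlations of deviations from -0.027 to 0.084). With the replicate block, H1 genes called were 3 for Dox without A-MYB, 7 for A-MYB without Dox (H1fx, at -0.23, was then called lower) and 6 for the interaction, and 7 for each of the other 3 contrasts. Counts were lowest for Hist1h1t, at 1 to 8 per library, and Hist1h1e, at 15 to 163, where counting error is largest.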

Other observations

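Besides Hist1h1t, the Hist1 cluster holds core histone genes whose proteins are best known from the testis, here chosen after their values were seen. Hist1h2aa, a testis H2A gene, had 9 and 1 counts in control, 4 and 8 in Dox, 9 and 18 in A-MYB, and 97 and 109 in Dox + A-MYB cells (2.83 and 3.23 CPM). The Dox + A-MYB libraries stood far above the other 6. Hist1h2ba, a testis H2B gene, had 0 to 3 counts in the other 6 libraries and 6 and 9 in Dox + A-MYB cells, near the limit of detection, as Hist1h1t was.

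The promoters that hold the H1 box, CCAAT and TATA in that order in the 150 bases before the start belong, besides 5 H1 genes, to the RefSeq genes H2-M1, H2-M9, H2bc14 and Vmn2r57.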
